A study of Rattus norvegicus with 8 samples.

Results

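Cdkn1a, Mdm2, Gadd45a, Gadd45b, Bbc3, Bax, Ccng1, Sesn1 and Sesn2 are 9 genes grouped here as targets of the transcription factor p53 and DNA damage response genes. They were followed in rat osteoblast-like cells after Er:YAG laser irradiation. They were chosen by name, and their probes are the rat probes of the array whose gene name equals 1 of the 9 names. This gave 11 of the 45598 rat probes, for 9 of 34912 gene names, with 2 probes each for *Cdkn1a* and *Bax*. The rule used no measured value, but the 9 genes were chosen with earlier results of these data known.

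Total RNA (200 ng) from osteoblast-like cells of the calvaria of 3- to 5-day-old rats was hybridized to 8 one-color arrays. Of these, 4 arrays held non-irradiated control cells (0 J/cm2) and 4 held cells irradiated at 3.3 J/cm2 for 60 s, all collected 6 h after irradiation. The Er:YAG laser emits in the infrared, where water absorbs strongly, and the cells were Wistar rat primary cells released from the skull bone by serial enzyme digestion and irradiated with the medium removed. Both groups carry replicate numbers 1 to 4, and a non-irradiated and an irradiated array of the same number were treated as a pair. The labels describe a growth medium and an osteoinduction medium for both groups alike. The scanner files carry 1 rat number for the arrays of a pair, but the sources used here do not say whether that number stands for 1 animal, a litter or a pool, so the p-values measure only the spread between these samples.

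When DNA is damaged, p53 escapes the ubiquitin ligase MDM2 and turns on genes that stop the cell cycle, repair DNA or kill the cell. *Mdm2* is itself a p53 target, which closes a feedback loop, and *Cdkn1a* (p21) is the best known arrest target. In osteoblasts, p53 and MDM2 are known to restrain and to permit differentiation, respectively. Several of the 9 genes also answer other signals, such as inflammatory signaling for *Gadd45b* and amino acid stress for *Sesn2*. The question asked of them here is whether their mRNA differed 6 h after the laser exposure.

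The p53 response element is made of a pair of copies of a 10-base consensus, here called the p53 decamer. RefSeq promoters of the GRCr8 build (250 bases before to 50 bases after a gene's start) were matched for 7 of the 9 genes, all but *Bax* and *Bbc3*. The decamer reads as the same pattern on both strands, so that 1 search covers both. It was present in the promoters of *Cdkn1a*, *Gadd45a*, *Ccng1* and *Sesn1*, which is 4 of 7, against 7.98% of the 33469 RefSeq promoters of the same length. Single decamers were searched for, and no search was made for a pair. The protein p53, by which the 9 genes are grouped, is known to bind pairs of them. The windows of these 4 promoters are shown for that reason, and the capitals mark the decamer:
*Cdkn1a*, chr20:7150711-7150760, plus strand: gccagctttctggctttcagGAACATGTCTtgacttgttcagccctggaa
*Gadd45a*, chr4:97486818-97486867, minus strand: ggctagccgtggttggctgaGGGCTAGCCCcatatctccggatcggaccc
*Ccng1*, chr10:25685079-25685126, minus strand: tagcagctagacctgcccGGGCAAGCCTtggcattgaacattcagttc
*Sesn1*, chr20:46948527-46948576, plus strand: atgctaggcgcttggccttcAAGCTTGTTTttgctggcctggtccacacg

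The first base of the decamer lay 201 bases before the start of *Cdkn1a*, 48 before that of *Gadd45a*, 232 before that of *Ccng1* and 172 before that of *Sesn1*. The windows of *Mdm2*, *Gadd45b* and *Sesn2* held no match, which says only that these letters were not in this window. The irradiated minus non-irradiated differences are described further on. On the log2 scale they were 0.0065, 0.071, -0.16 and -0.037 for *Cdkn1a*, *Gadd45a*, *Ccng1* and *Sesn1*, with the decamer. They were 0.067, -0.12 and -0.26 for *Mdm2*, *Gadd45b* and *Sesn2*, without it. Both sets held nominally higher and lower genes. None of these differences passed limma's unadjusted p of 0.05, so their signs cannot relate the decamer to irradiation. A match is a likeness of letters and not a measured binding site. The decamer was in 3 of 26 promoters of other p53 targets (11.5%), 2 of 18 of DNA damage sensing genes (11.1%), 1 of 19 of DNA repair genes (5.26%) and 0 of 12 of cell cycle genes.

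Between 26543 and 30490 of the rat probes were well above background on an array, 0 spots were saturated, and all 8 arrays lay on 1 slide read in 1 scan. Non-irradiated arrays stood in slide columns 1 and 3 and irradiated arrays in columns 2 and 4, so column and irradiation cannot be told apart. All 11 osteoblast markers looked for, among them *Runx2*, *Sp7*, *Alpl* and *Bglap*, were well above background on all 8 arrays. The log2 of their summed signals, which the brightest markers dominate, was 19.39 to 19.54 in non-irradiated and 19.08 to 19.51 in irradiated cells. Sums of the other marker lists are on this scale. Of 7 macrophage markers 4 were tested, while *Csf1r*, *Adgre1* and *Ptprc* were not well above background on all 4 arrays of either group, and the macrophage sum was 10.20 to 10.38 against 9.97 to 10.51. Endothelial markers (5 of 5 tested) summed to 12.78 to 13.67 against 12.87 to 14.15, skeletal muscle markers (5 of 6, without *Myod1*) to 8.25 to 11.41 against 8.30 to 10.98, and chondrocyte markers (5 of 5) to 12.83 to 17.40 against 12.85 to 17.48. These sums overlapped between the groups in every list. In such bulk RNA, fewer cells of a type and less RNA per cell cannot be told apart.

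For none of the 9 genes was a difference between irradiated and non-irradiated cells detected beyond the spread between pairs. All 11 probes were well above background on all 8 arrays, and they were part of a limma fit of 26391 probes that compared the arrays within pairs. Of the 11, 0 had an adjusted p below 0.05, where 0.00% of all probes did, and 0 had an unadjusted p below 0.05, where 2.54% of all probes (670) did. On the normalized log2 scale, 4 genes were nominally higher and 5 lower in irradiated cells, and their median log2 fold change was -0.037, beside 0.0019 over all 20633 genes tested. That median was -0.081 without replicate 1 and 0.014 without replicate 2. The log2 fold changes ran from -0.26 for *Sesn2* to 0.079 for *Bbc3*, and the limma adjusted p was 1.00 for every probe. Before adjustment, limma's p ran from 0.16 for *Sesn2* to 0.96 for the brighter *Cdkn1a* probe.

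**Figure D1:**
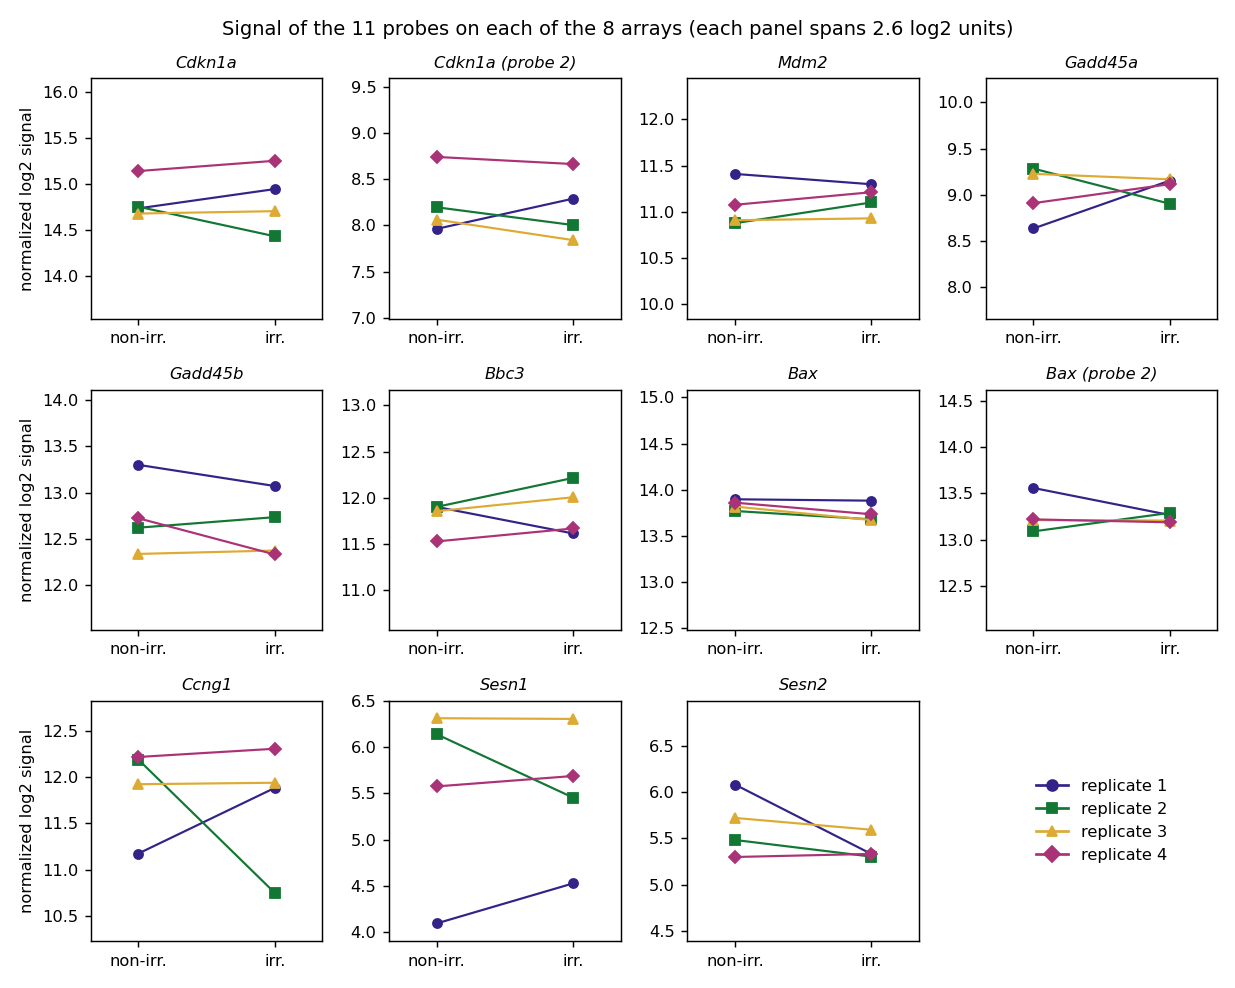
Normalized log2 signal (y axis, with 2.6 log2 units in each panel) of the 11 probes on the 8 arrays, with non-irradiated cells on the left and irradiated cells on the right of each panel. Lines join arrays of the same replicate number. In every panel the groups overlap, and *Ccng1* in replicate 2 fell from 12.19 to 10.75.

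The 95% intervals of the log2 fold change lay inside -1 to 1, that is within a doubling or a halving, for 11 of 11 probes, as they did for 95.2% of all probes. The lowest bound was -0.98 (*Ccng1*) and the highest 0.67 (*Ccng1*). For *Cdkn1a*, *Mdm2* and *Bax* (first probes), the intervals in fold change were 0.803 to 1.26, 0.860 to 1.28 and 0.782 to 1.12. These intervals are not adjusted for the number of probes. An exact sign-flip test over 4 pairs cannot give a two-sided p below 0.125, which is 2 of the 16 sign patterns, and *Bax* alone among the 11 probes reached it.

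**Figure D2:**
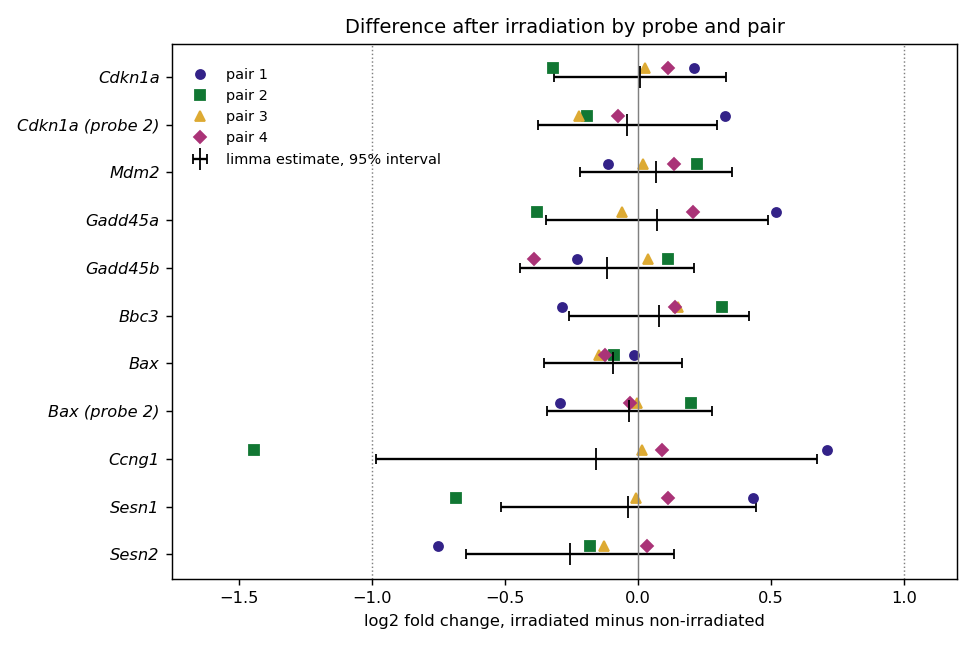
Log2 fold change (x axis, irradiated minus non-irradiated) of the 11 probes, with the limma estimate and its 95% interval in black and the differences of the 4 pairs as colored symbols. Dotted lines mark -1 and 1. Every interval crosses 0, and the widest is that of *Ccng1*, from -0.98 to 0.67, whose pairs run from -1.44 to 0.71.

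*Mdm2* encodes the ubiquitin ligase that marks p53 for breakdown. Its probe (A_44_P634946, chr7:56996880-56996939 of rn4, minus strand) gave log2 signals of 11.41, 10.88, 10.91 and 11.08 in non-irradiated replicates 1 to 4. In irradiated cells the values were 11.30, 11.10, 10.93 and 11.21. The groups overlapped, replicate 1 was the highest in both, and 3 of 4 pairs were higher after irradiation. The mean went from 11.07 ± 0.24 (SD, n = 4) to 11.13 ± 0.16, a change of 0.067 (standard error, SE, 0.12, exact sign-flip p = 0.375).

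*Ccng1* encodes cyclin G1, which recruits a phosphatase to MDM2 and so feeds back on p53. Its log2 signal (probe A_44_P235919, chr10:25776868-25776927 of rn4, minus strand) was 11.18, 12.19, 11.92 and 12.22 in non-irradiated replicates 1 to 4. In irradiated replicates 1 to 4 it was 11.88, 10.75, 11.94 and 12.31. The lowest value in non-irradiated cells was replicate 1 and the lowest in irradiated cells replicate 2, while replicates 3 and 4 hardly moved. *Ccng1* therefore had the widest spread of pair differences of the 9 genes, 0.71, -1.44, 0.016 and 0.088. The mean was 11.88 ± 0.49 (SD, n = 4) in non-irradiated and 11.72 ± 0.67 in irradiated cells, and the difference was -0.16 (SE 0.34, exact sign-flip p = 1.0). Replicate 2 set its sign, since the difference was 0.27 without it and -0.45 without replicate 1. The probe has 1 spot on each array, so no second spot checks the value of irradiated replicate 2. Across 26250 probes, deviations of the replicate 2 arrays from their group means correlated at 0.054. In the other replicates this correlation was 0.57 to 0.75. What lay behind the low value was not tested.

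*Cdkn1a* encodes p21, an inhibitor of cyclin-dependent kinases that holds cells in the first gap phase. Its brighter probe (A_44_P914438, chr20:7386596-7386655 of rn4, plus strand) has 10 spots on each array. Over all arrays 6 of its spots were left out as non-uniform or outlying, and the SD between the spots kept on an array was at most 0.055 on the log2 scale. The log2 signal was 14.74, 14.75, 14.68 and 15.14 in non-irradiated replicates 1 to 4 and 14.94, 14.43, 14.71 and 15.25 in irradiated ones. Replicate 4 was the highest in both groups and the groups overlapped. Both means were 14.83, with SDs of 0.21 and 0.35 (n = 4 each), and they differed by 0.0065 (SE 0.13, exact sign-flip p = 0.875). Pair differences were 0.21, -0.32, 0.026 and 0.11, with pairs 1 and 2 of opposite sign.

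The other *Cdkn1a* probe (A_44_P515275, chr20:7385506-7385565 of rn4, plus strand) read 7.96, 8.20, 8.06 and 8.74 in non-irradiated and 8.29, 8.0, 7.84 and 8.66 in irradiated replicates 1 to 4. Replicate 4 was again the highest on both sides. Here irradiated cells were at -0.041 relative to non-irradiated cells (SE 0.14, exact sign-flip p = 0.875). Over the 8 arrays the probes of *Cdkn1a* had a Pearson correlation of 0.880, given as a description because arrays of a pair share their replicate. Pairs 1 and 2 had the same sign on both probes and pairs 3 and 4 did not.

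*Gadd45a* and *Gadd45b* encode small stress proteins that bind cell cycle and repair factors and activate stress kinases. *Gadd45a* (probe A_44_P216395, chr4:96650454-96650513 of rn4, minus strand) gave log2 signals of 8.64, 9.28, 9.23 and 8.91 in non-irradiated and 9.15, 8.90, 9.17 and 9.12 in irradiated replicates 1 to 4. Irradiated values lay inside the range of the non-irradiated ones. Pairs 1 and 4 were higher (0.52 and 0.21) and pairs 2 and 3 lower (-0.38 and -0.059). They averaged 0.071 (SE 0.17, exact sign-flip p = 0.75), and without replicate 1 the average was -0.078.

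*Gadd45b* (probe A_43_P16529, 2 spots) read 13.30, 12.62, 12.34 and 12.72 in non-irradiated and 13.07, 12.73, 12.37 and 12.33 in irradiated replicates 1 to 4. Replicate 1 was the highest in both groups. The probe's annotated stretch on chromosome 7 of rn4, from 10289049 to 10289076, covers 28 of its 60 bases. With 2 pairs higher and 2 lower, the average difference was -0.12 (SE 0.13, exact sign-flip p = 0.5). Neither *Gadd45a* nor *Gadd45b* gave a change that passed the test.

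*Bbc3* encodes PUMA, which frees BAX and BAK from their inhibitors and so triggers mitochondrial cell death. Its log2 signal (probe A_44_P437945, with no position on the array's annotation) was 11.90, 11.90, 11.85 and 11.53 in non-irradiated and 11.61, 12.21, 12.005 and 11.67 in irradiated replicates 1 to 4. It was higher in 3 of 4 pairs, pair 1 was at -0.29, and the groups overlapped. On average irradiated cells were 0.079 higher (SE 0.14, exact sign-flip p = 0.5). Pairs 2 to 4 were at 0.31, 0.15 and 0.14. The average was 0.20 without replicate 1 and 0.0012 without replicate 2, so it depended on which pairs were kept.

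*Bax* encodes the protein that forms pores in the outer mitochondrial membrane. The first of its probes (A_44_P1164081, chr1:95933023-95933082 of rn4, minus strand) is shown because it has the tightest pairs of the set, and the capitals mark the stop codon that ends its open frame:
*Bax* probe A_44_P1164081: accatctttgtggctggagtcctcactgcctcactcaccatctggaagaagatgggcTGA

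On this probe the log2 signal was 13.90, 13.77, 13.82 and 13.86 in non-irradiated replicates 1 to 4. The irradiated replicates gave 13.88, 13.68, 13.67 and 13.74. All 4 pairs were lower, with differences of -0.016, -0.090, -0.15 and -0.12. This was the only 1 of the 11 probes to go the same way in 4 of 4 pairs, as 7.57% of all probes did (4.0% lower and 3.57% higher). The groups still overlapped, as they did for 11 of 11 probes, where 0.591% of all probes had groups that did not. The average difference was -0.094 (SE 0.11, exact sign-flip p = 0.125).

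The other *Bax* probe (A_64_P015183, chr1:95932895-95932954 of rn4, minus strand) gave an average difference of -0.032 (SE 0.13, exact sign-flip p = 0.625). Its signals were 13.56, 13.09, 13.21 and 13.22 in non-irradiated and 13.26, 13.29, 13.20 and 13.19 in irradiated replicates 1 to 4. Pairs 1, 3 and 4 were lower and pair 2 was higher, by 0.20. The lower signal of the first probe in all pairs was therefore not seen in pair 2 of the second.

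*Sesn1* and *Sesn2* encode sestrins, which restrain the growth kinase complex mTORC1 and limit oxidative stress. *Sesn1* (probe A_64_P389571, chr20:45876719-45876778 of rn4, plus strand) gave log2 signals of 4.09, 6.14, 6.31 and 5.58 in non-irradiated and 4.53, 5.46, 6.31 and 5.69 in irradiated replicates 1 to 4. Both arrays of replicate 1 lay below all 6 others. From 5.53 ± 1.01 (SD, n = 4) in non-irradiated to 5.49 ± 0.74 in irradiated cells, the change was -0.037 (SE 0.20, exact sign-flip p = 0.875). Without replicate 2 it was 0.18.

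*Sesn2* (probe A_44_P802511, chr5:152655891-152655950 of rn4, plus strand) had the smallest p of the 9 genes, 0.16 by limma, and an average difference of -0.26 (SE 0.16). Its signals were 6.08, 5.48, 5.72 and 5.30 in non-irradiated and 5.33, 5.30, 5.59 and 5.33 in irradiated replicates 1 to 4. Pair 1 carried most of the difference, with -0.75, against -0.18, -0.13 and 0.034 in pairs 2 to 4. Without replicate 1 the difference was -0.091. With all replicates it was -0.12 with normexp background correction, with the uncorrected mean signal and in the deposited values alike. By p it ranked at place 2350 of the 26391 probes. The *Sesn2* promoter lies on the minus strand in GRCr8, while the probe is on the plus strand in rn4. For the other genes with both positions, the strands of probe and promoter were the same. Whether the probe reads the *Sesn2* transcript was not tested.

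On the log2 scale, the range of the 4 replicate means, each over both conditions, was 2.0 for *Sesn1*, 0.83 for *Gadd45b*, 0.79 for *Ccng1*, 0.60 for *Cdkn1a* (first probe), 0.46 for *Bbc3*, 0.44 for *Mdm2*, 0.39 for *Sesn2*, 0.30 for *Gadd45a* and 0.16 for *Bax*. The size of the irradiation difference was between 0.011 (*Cdkn1a*) and 0.66 (*Sesn2*) of that range, although a range over 4 means is wider by construction than a difference of group means. The replicate terms of the same fit were tested with limma's F test, which was chosen after the values had been seen. Of the 11 probes 0 passed an adjusted p of 0.05, where 3.38% of all probes and 3.67% of all genes did. *Sesn1* came nearest, with an adjusted p of 0.051 (unadjusted p = 0.0018), and the unadjusted p was 0.020 for *Gadd45b* and 0.033 for the second *Cdkn1a* probe. The probes of *Sesn1* and *Sesn2* were the dimmest of the 11. Their mean log2 signals in non-irradiated cells were 5.53 and 5.65, against 8.24 to 14.83 for the rest.

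**Figure D3:**
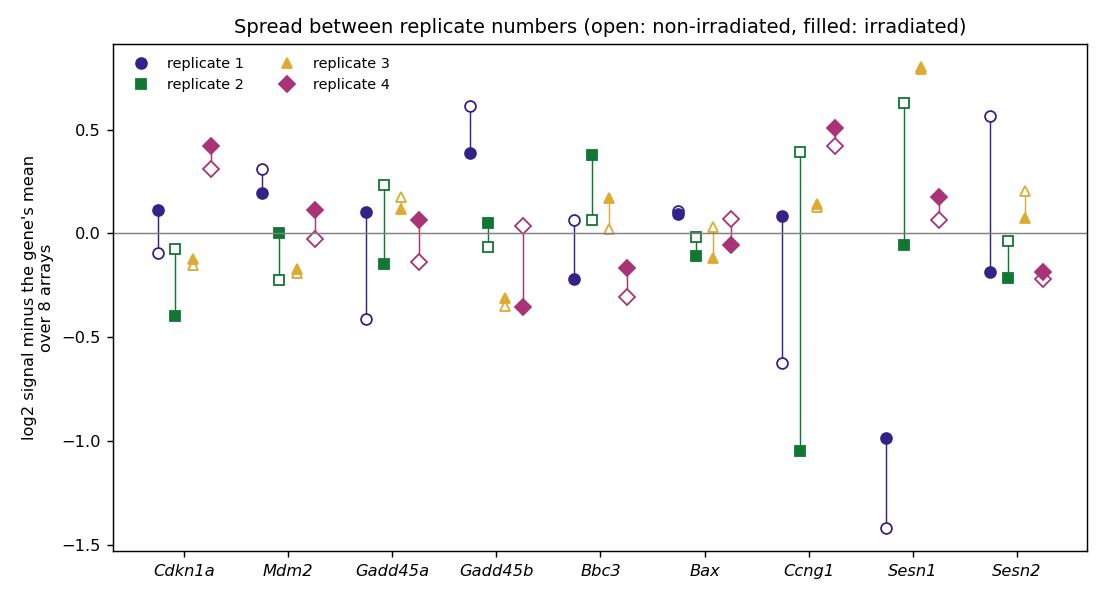
Log2 signal of each of the 9 genes (first probes) minus its mean over the 8 arrays (y axis), by replicate number, with open symbols for non-irradiated and filled symbols for irradiated cells. Both symbols of replicate 1 lie about 1 log2 unit or more below the mean for *Sesn1* (4.09 and 4.53), and both of replicate 4 lie highest for *Cdkn1a* (15.14 and 15.25).

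The low *Sesn1* signal of replicate 1 came with other differences of that replicate. In replicate 1, the log2 of the summed signals of the 5 chondrocyte markers was 12.83 in non-irradiated and 12.85 in irradiated cells. On the other 6 arrays it was 16.35 to 17.48. The skeletal muscle sum was highest in replicate 1, with 11.41 and 10.98, against 8.25 to 9.71 elsewhere. The part of these markers in the *Sesn1* signal was not tested. Over the 8 arrays *Sesn1* had a Pearson correlation of -0.94 with *Mdm2* and -0.93 with *Gadd45b*, and *Cdkn1a* had -0.90 with *Bbc3*. These 3 are the correlations of largest size among all pairs of the 9 genes, and all are negative. They are descriptions over 8 arrays that share 4 replicate numbers. The mean of replicate 1 was the lowest for *Sesn1* (4.31) and the highest for *Mdm2* (11.35) and *Gadd45b* (13.19). That of replicate 4 was the highest for *Cdkn1a* (15.20) and the lowest for *Bbc3* (11.60). How far the correlations rest on these replicates was not tested.

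Pairs 1 and 2 went opposite ways for 7 of the 9 genes, but so they did for 74.1% of all probes. The median difference of the 9 genes was -0.016, -0.18, 0.016 and 0.11 in pairs 1 to 4, beside -0.073, 0.11, -0.0093 and 0.0067 over all genes. The median SD of the 4 pair differences was 0.26 for the 9 genes and 0.31 for all genes, and the median size of the log2 fold change was 0.079 and 0.078.

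Genes that act on p53 were read from a list of 10, of which 9 were tested. None passed an unadjusted p of 0.05 in either direction, where 1.42% of all genes were higher and 0.960% lower at that level. *Mdm4*, whose product pairs with MDM2 and masks p53, was at 0.066 on the log2 scale (SE 0.17). Those with the smallest p were *Wwox* at -0.26, *Cdkn2a*, whose ARF product inhibits MDM2, at 0.15 and higher in 4 of 4 pairs, and *Hipk2*, a kinase of p53, at 0.18. The p53 protein is controlled largely by its stability, which an mRNA array does not measure.

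Of 30 other p53 targets, 27 were tested, 0 were called at an unadjusted p below 0.05, and the median log2 fold change was 0.031, which turned to -0.015 when the probes of a gene were averaged. In this list 15 genes were nominally higher and 12 lower. The smallest p belonged to *Eda2r*, a death receptor of the tumor necrosis factor family, at 0.22 (SE 0.12), then to *Fuca1*, a lysosomal fucosidase, at 0.10, and *Perp*, a membrane protein, at 0.13. In 4 of 4 pairs, 2 genes of the list were higher, *Fuca1* among them, and 0 were lower. Of all probes, 3.57% were higher and 4.0% lower in 4 of 4 pairs. The lowest value was -0.24 for *Sfn*.

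Among 14 relatives of the 9 genes, all tested, 1 was called higher and 0 lower at an unadjusted p below 0.05. *Bcl2l1*, which encodes the survival protein BCL-XL that binds BAX and PUMA, was 0.32 higher on the log2 scale (SE 0.12, limma adjusted p = 1.00) and higher in 4 of 4 pairs. With 1 of 14 called, the count is too small to set the list apart from the 2.38% of all genes. *Bcl2* itself was at -0.37 (SE 0.20) and *Bid*, a death agonist, at 0.17 (SE 0.16). The median of the 14 was -0.025.

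DNA damage sensing and checkpoint genes numbered 20 tested of 23 listed, with 0 called in either direction and a median of -0.048. In 4 of 4 pairs, 1 gene of this list was lower and 0 were higher. Of all probes, 4.0% were lower and 3.57% higher in this way. The smallest p were those of *Rad9a*, a subunit of the checkpoint clamp, at 0.27 (SE 0.15), *H2afx*, the histone that is phosphorylated at breaks, at -0.15 (SE 0.12), and *Clspn* at -0.25 (SE 0.20). For DNA repair, 21 of 23 genes were tested, 0 were called, and the median was 0.012. There *Xrcc4*, which joins broken ends, was at 0.33 (SE 0.14) and higher in 4 of 4 pairs, *Parp1* at -0.14 and *Lig4*, the ligase that works with XRCC4, at -0.16.

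Cell cycle genes, which p21 restrains, were tested for 15 of 15. Although 14 of the 15 were nominally lower in irradiated cells, 0 passed an unadjusted p of 0.05. The median was -0.075, beside 0.0019 over all genes. The 15 genes were read on the same 8 arrays, so they are not 15 separate observations. *Aurkb* was at -0.21 (SE 0.17), *Ccna2* at -0.14 and *Aurka* at -0.12. By pair, the median of the list was -0.040, 0.19, -0.11 and -0.38, so that pair 2 went against pair 4, and the median was 0.0064 without replicate 4 and -0.19 without replicate 2.

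**Figure D4:**
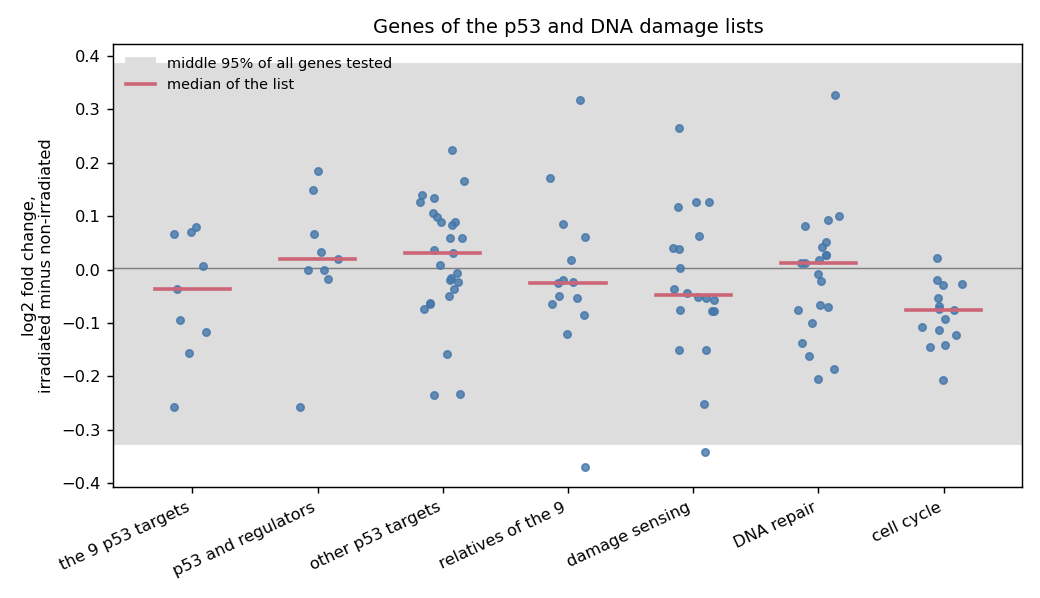
Log2 fold change (y axis, irradiated minus non-irradiated) of each tested gene, 1 point a gene, in 7 lists of p53 and DNA damage genes along the x axis, with the median of each list in red. The gray band holds the middle 95% of all genes tested, from -0.33 to 0.38. The 9 genes, labeled as p53 targets on the axis, all lie inside the band, and the list medians lie between -0.075 and 0.031.

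The genes most like *Cdkn1a* and *Mdm2* were taken as those with the highest Pearson correlation over the 8 arrays among 20506 genes. For *Cdkn1a* they were *Gss* at 0.987, *Txnrd1* at 0.986 and the unnamed probe A_44_P898364 at 0.983, and 126 genes were above 0.9. For *Mdm2* they included *LOC102551617* at 0.992 and *Zfp978* at 0.984, with 348 genes above 0.9. The 8 arrays share 4 replicate numbers, and no test was made of these correlations.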

How the data were processed

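Spot intensity values were deposited by the authors in the output of Agilent Feature Extraction 11.0.1.1, background-subtracted and detrended within an array but not normalized between arrays. They also deposited log2 values of 24029 rows, quantile normalized by the authors with 1 row for each transcript name, whose column medians lay between 7.62 and 7.66 and which correlated with the log2 signals at 0.974 to 0.977. Their background correction is not given in the sources used here.

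Processed signals of the 58717 rat spots were transformed to log2 and quantile normalized. Spots marked as non-uniform or outlying (446 to 690 on an array) were left out and each probe's spots averaged. A probe was kept if over 50% of its spots were well above background on every array of either group (26404 probes), and limma 3.58.1 (R 4.3.3; lmFit, eBayes) was run on the 26391 with at least 2 complete pairs. The model had the replicate number as a block, and p-values were two-sided with Benjamini-Hochberg adjustment over all probes. The deviations of same-numbered arrays from their group means correlated across 26250 probes at 0.608, 0.054, 0.571 and 0.749 for numbers 1 to 4, and the scanner files' names give both arrays of a number the same rat number.

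For a gene with several probes, the one with the highest mean signal was used in lists. Each of the 9 genes was named with all its probes. From other lists, *Mdm4* and the 3 genes with the smallest p were named, as were the 3 genes most correlated with *Cdkn1a* and with *Mdm2*, plus the extremes and exceptions given as such, which were chosen after their values were seen. Some genes that this rule names are not reported here. The 9 genes and all lists, which also cover macrophage, endothelial, skeletal muscle, chondrocyte and osteoblast markers, were chosen with earlier results of these data known. Positions are those on the array for rn4, and promoters are RefSeq's for GRCr8. Settings tried in turn were normexp with an offset of 50, scaling to the 75th percentile, the mean signal, the deposited values, other filters on dim probes, outlying spots kept, each replicate left out, no block, a random block, a trended robust prior, and averaged probes. A slide block was not fitted, since there was 1 slide. The number of arrays limits the precision.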

Additional observations from a re-analysis of the deposited data

Results flagged for a closer look

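Of 22 groups of 4 arrays (11 probes in 2 conditions), 3 held an array far from the rest by Dixon's gap test at the 95% level, which chance gives in about 1 in 20 groups. For the brighter *Cdkn1a* probe it was non-irradiated replicate 4, with a log2 signal of 15.14, while the rest of that group ran from 14.68 to 14.75. The irradiated array of the same number was also the highest of its group (15.25). For *Bbc3* it was again non-irradiated replicate 4, with 11.53, where the group otherwise ran from 11.85 to 11.90 and the irradiated partner had 11.67. For *Sesn2* it was irradiated replicate 3, with 5.59, where the group otherwise ran from 5.30 to 5.33 and the non-irradiated partner had 5.72.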

How the results depend on the processing

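Under all 15 alternatives, 0 of the 9 genes had an adjusted or an unadjusted p below 0.05. Of all probes of the array, 0 had an adjusted p below 0.05. The smallest limma adjusted p of the 9 was 0.87 (without replicate 2). The number of probes with an unadjusted p below 0.05, 670 as reported, was 250 with normexp, 251 with the mean signal, 292 with the deposited values, 1658 when dim probes were kept (45585 probes tested), 383 with the trended robust prior and 247 with no replicate block. Leaving out a replicate gave 389 to 1407, with 1407 without replicate 2 and 1076 without replicate 1. Apart from the larger number of probes, the cause was not tested. The block changed no call of any of the 9 genes. The *Cdkn1a* log2 fold change turned to -0.0033 scaled to the 75th percentile, -0.0069 with normexp, -0.0069 with the mean signal, -0.061 and -0.028 without replicates 1 and 4, and -0.017 with its probes averaged. With a replicate left out, it ran from -0.061 to 0.12, that of its second probe from -0.16 to 0.019 (0.0095 without replicate 2 and 0.019 without replicate 3), *Gadd45a* from -0.078 to 0.22, *Ccng1* from -0.45 to 0.27, *Sesn1* from -0.19 to 0.18 and the second *Bax* probe from -0.11 to 0.054. Counts of called genes stayed at 0 for the cell cycle list. They ran from 0 to 1 (without replicate 1) for p53 regulators, 0 to 2 (without replicate 2) for other targets, which was 1 with probes averaged, 0 to 1 for sensing (without replicates 2 and 4) and 0 to 1 for repair (without replicate 1). For repair, 1 was also called with normexp, with the mean signal, with the 75th percentile and when all 8 arrays had to be well above background. The repair median ran from -0.053 to 0.044 with a replicate left out. *Mdm2* (0.014 to 0.13) and *Bbc3* (0.0012 to 0.20) kept their sign under all 15 alternatives. So did *Gadd45b* (-0.19 to -0.026), *Sesn2* (-0.35 to -0.091) and *Bax* (-0.12 to -0.063). The *Bax* values are those of its first probe, apart from -0.063, for which its probes were averaged. All 11 probes were well above background on every array.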
